A study of Mus musculus with 20 samples.

Results

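The N-terminal fragment of the NF-kB subunit p65 (RelA), residues 1 to 361 and here called the N-fragment, was compared with a void plasmid in a murine B16 melanoma line that carries Bcr-Abl. The comparison rests on 6 of the 20 arrays of the series, chosen by their titles: 3 arrays of cells transfected with the N-fragment plasmid and 3 of cells transfected with the void plasmid, whose titles read "Blanck". The cells were grown in DMEM with serum, and total RNA was labelled with Cy3 and hybridized to 1-colour Agilent mouse arrays. The other groups were 5 arrays of the N-fragment given together with the C-terminal fragment (N+C), and 3 arrays each of the C-fragment (residues 362 to 549), of the non-cleavable D361E protein and of full-length wild-type p65 (WT).

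Every group shares the B16 Bcr-Abl+ background, so no array shows the constructs without the Bcr-Abl kinase. The labels list mouse C3H eOuJ as the strain of all samples. They do not say whether the constructs were expressed transiently or in selected clones, which promoter drove them, how long after transfection RNA was taken, or how the replicates were made. The p-values therefore measure only the spread between arrays, which may be technical. That spread was pooled over the arrays within every group of the series, so it also depends on groups outside a comparison. In bulk RNA, more RNA per cell and more cells expressing a gene cannot be told apart.

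NF-kB is a family of dimeric transcription factors that IkB proteins hold in the cytoplasm until the IKK kinases mark them for destruction. The amino-terminal part of p65 holds the Rel homology domain, which binds DNA, the partner subunit and IkB, and the nuclear localization signal, whereas the transactivation domains lie in the carboxy-terminal part. Caspases can cut p65 between both parts, and the D361E protein carries a change at that site. Well known NF-kB targets include the inhibitors IkB-alpha and A20, which close the loop, chemokines such as Cxcl1, Cxcl10 and Ccl5, and survival factors such as the inhibitor of apoptosis proteins.

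The kB site that p65 dimers bind lies in the promoters of several of these targets, and 5 promoters are shown. Against void, Nfkbia, Tnfaip3 and Cxcl10 were called higher and Bcl3 was not called. Cxcl1 was below background on every array of both groups, so its response could not be read. Each sequence is RefSeq's (GRCm38.p6), runs 5′ to 3′ on the gene's strand from 250 bases before to 50 bases after the start, and has matches to the kB consensus in capitals. Both strands were searched. In Cxcl1 a match on each strand overlaps the other, shifted by 1 base.
Nfkbia, chr12:55492598-55492897, minus strand: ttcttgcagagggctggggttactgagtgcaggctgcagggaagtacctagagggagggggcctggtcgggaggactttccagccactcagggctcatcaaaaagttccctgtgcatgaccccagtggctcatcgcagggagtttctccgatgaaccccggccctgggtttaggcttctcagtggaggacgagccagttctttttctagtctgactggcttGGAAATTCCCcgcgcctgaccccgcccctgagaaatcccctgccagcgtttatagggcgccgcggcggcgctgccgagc
Tnfaip3, chr10:19015361-19015660, minus strand: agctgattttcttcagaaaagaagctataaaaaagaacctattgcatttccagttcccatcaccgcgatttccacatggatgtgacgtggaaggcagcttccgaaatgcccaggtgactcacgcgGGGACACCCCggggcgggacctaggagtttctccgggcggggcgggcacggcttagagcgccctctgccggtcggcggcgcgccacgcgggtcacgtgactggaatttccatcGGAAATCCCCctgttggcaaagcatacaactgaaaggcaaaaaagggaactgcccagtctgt
Cxcl10, chr5:92348840-92349139, minus strand: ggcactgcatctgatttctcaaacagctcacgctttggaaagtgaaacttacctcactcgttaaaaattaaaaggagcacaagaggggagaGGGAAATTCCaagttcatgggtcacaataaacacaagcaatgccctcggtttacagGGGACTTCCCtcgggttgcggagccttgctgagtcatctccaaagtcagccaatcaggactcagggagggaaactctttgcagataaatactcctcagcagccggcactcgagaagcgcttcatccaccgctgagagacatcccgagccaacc
Bcl3, chr7:19822706-19823005, minus strand: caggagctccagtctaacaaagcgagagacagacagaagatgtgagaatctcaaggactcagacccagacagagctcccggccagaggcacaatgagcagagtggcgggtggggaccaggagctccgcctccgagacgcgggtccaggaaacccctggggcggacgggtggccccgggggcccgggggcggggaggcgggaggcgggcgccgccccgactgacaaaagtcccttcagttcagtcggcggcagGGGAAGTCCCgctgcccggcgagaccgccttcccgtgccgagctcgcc
Cxcl1, chr5:90890995-90891294, plus strand: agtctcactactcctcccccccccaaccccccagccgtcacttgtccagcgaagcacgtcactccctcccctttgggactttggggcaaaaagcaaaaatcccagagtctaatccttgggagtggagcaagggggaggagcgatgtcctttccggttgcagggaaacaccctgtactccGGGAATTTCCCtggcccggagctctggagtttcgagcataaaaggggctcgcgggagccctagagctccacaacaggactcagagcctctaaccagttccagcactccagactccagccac

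The consensus was found in 4.51% of all 32851 promoter windows in the table. Among tested genes with a window it was found in 100 of 1739 genes called higher with the N-fragment (5.75%), in 158 of 2117 called lower (7.46%) and in 671 of 11034 overall (6.08%). The share among genes called higher lay below that of the tested genes as a whole, and the share among genes called lower lay above it. Within the NF-kB lists it was found in 6 of 12 members called higher that have a window (Nfkb2, Nfkbia, Tnfaip3, Cyld, Cxcl10 and Csf1), in 2 of 4 called lower (Tank and Tlr2) and in 8 of 29 that were not called. A match is a description of these letters, not evidence of binding.

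Between 51.1 and 57.9% of the non-control spots of an array were well above background, and no spot was saturated. Levels are given as log2 intensity minus the 75th percentile of the array's non-control probes, so that 0 is the brightness of that percentile and 1 unit is a 2-fold change. Replicate arrays correlated at 0.9857 to 0.991 in the N-fragment group and at 0.9838 to 0.9889 in the void group. The 20 arrays sat on 5 slides, and the groups were spread over them: N-fragment replicates 1, 2 and 3 lay on slides 2, 4 and 1, and void replicates 1, 2 and 3 on slides 3, 5 and 2. The 4 arrays of slide 2, among them N-fragment replicate 1 and void replicate 3, had lower values on the second principal component (17.2% of the variance) than any other array of their own groups. Several of the smaller changes between N-fragment and void lost their call without slide 2 or without a single array, which is said beside the gene or its list.

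With the N-fragment, 5829 of 18738 genes passed the test against void (31.1%; limma, Benjamini-Hochberg adjusted p under 0.05). Of these 2472 were higher (13.2% of genes tested) and 3357 lower (17.9%). The shifts were mostly small, with a median size of 0.48 among genes called higher and of 0.60 among genes called lower on the log2 scale. At least 2-fold differences were found for 456 genes higher (2.43%) and 860 lower (4.59%). The 3 N-fragment arrays lay wholly above the 3 void arrays for 18.4% of genes and wholly below for 25%. Without any scaling between arrays the split turned to 6323 higher and 1121 lower, since the median of all genes moved to 0.28, against -0.06 in the scaled values. Small differences of either sign are thus relative to the array's overall brightness. Without slide 2, 5332 genes were called, and 4934 of the 5829 calls were retained in the same direction. On slide 2 itself, N-fragment replicate 1 minus void replicate 3 had the sign of the fit for 5817 of 5827 called genes measured on both arrays. Both arrays were part of that fit, so this count was largely set by how the genes were called and does not test the slide.

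**Figure D1:**
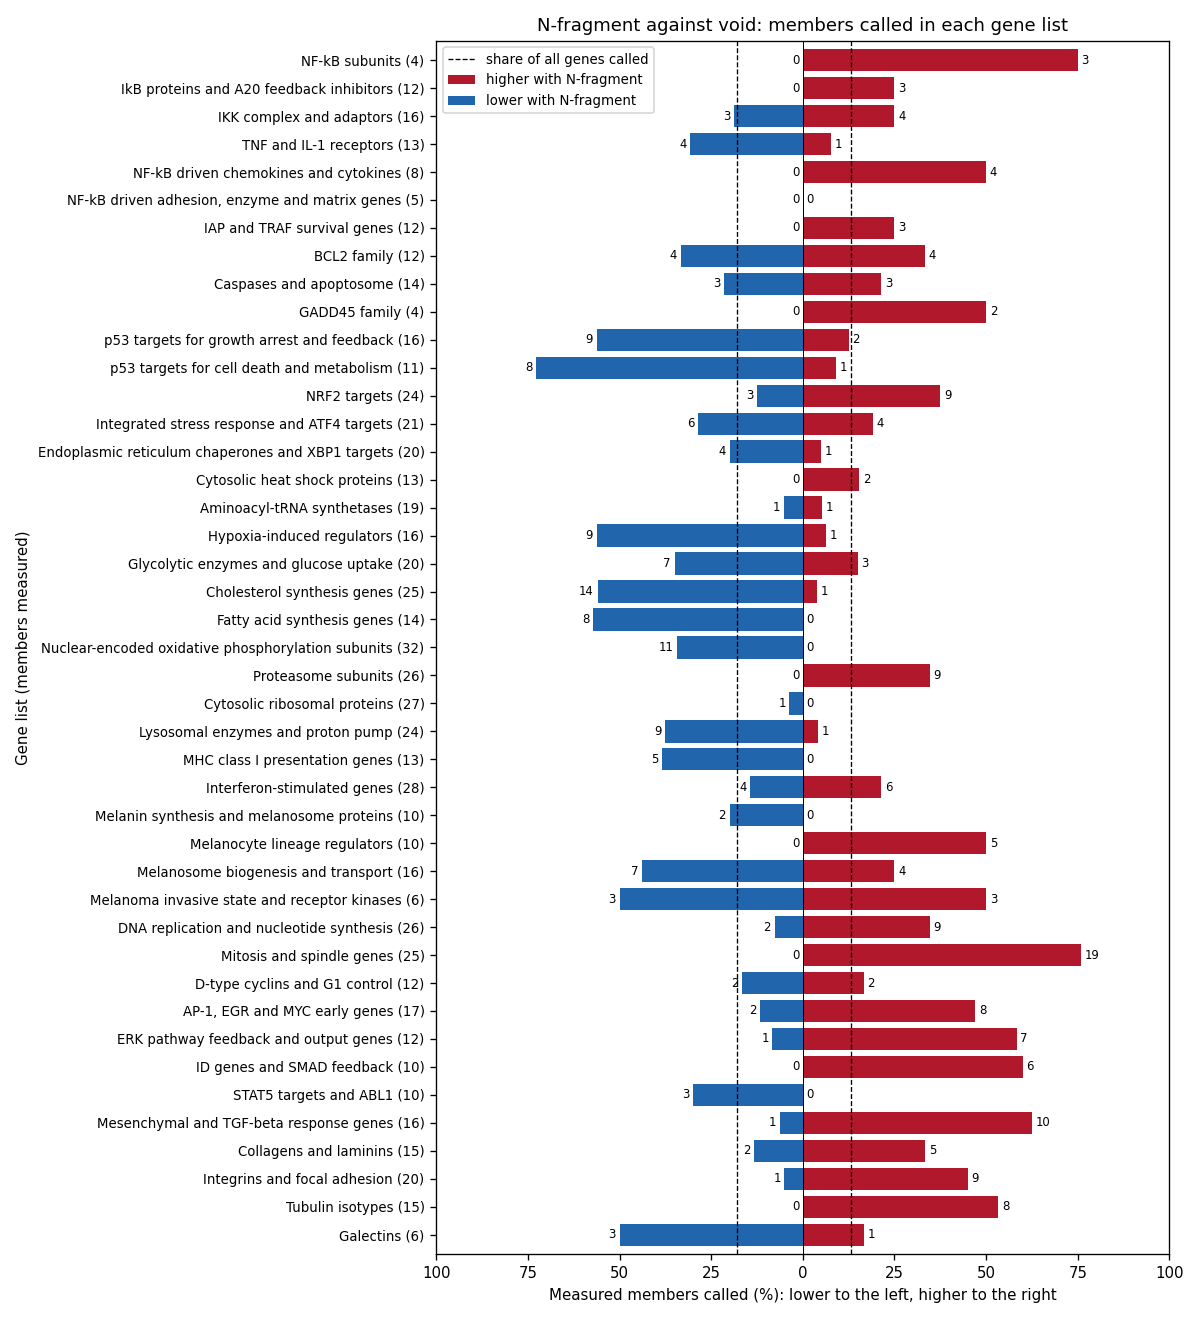
Share of the measured members of each gene list called higher (right) or lower (left) with the N-fragment against void, in percent, with the number of genes at the end of each bar. Dashed lines mark the share of all genes called, 13.2% higher and 17.9% lower. Mitosis genes reach furthest to the right (19 of 25) and p53 targets for cell death furthest to the left (8 of 11).

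The plot of calls per list gives the outline, and the genes behind it follow by their roles. Each count of members called against void is to be read beside the 13.2% of all genes called higher and the 17.9% called lower. A count near those shares says nothing particular about its list. Values after a difference are its standard error and the adjusted p from the limma fit. Genes below background on all arrays of one group are given as "at least N-fold", the brighter group's mean over the lowest signal that counted as above background. Putting them at that bound left the median of every list named below as it was, except for the neuronal and glial markers.

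Of 4 measured NF-kB subunit genes 3 rose slightly and none fell. Rela, the gene of p65, stood at 4.51, 4.69 and 4.39 on the N-fragment arrays, against 4.17, 4.14 and 4.19 on the void arrays. The groups did not overlap, and the difference was 0.36 ± 0.07 (adjusted p = 0.00089), or 1.28-fold. Where the Rela probe lies on the transcript was not worked out here, so it does not check whether plasmid RNA was read. Nfkb2, which encodes the p100 precursor of p52, rose by 0.91 ± 0.19 (adjusted p = 0.0017). Relb, its usual partner, stood at 0.43, 0.36 and 0.17 with the N-fragment, against 0.00, -0.12 and -0.03 with void, a rise of 0.37 ± 0.11 (adjusted p = 0.021) whose call was lost without void replicate 2 or without N-fragment replicate 1 or 2, and with the mean of its probes (adjusted p = 0.0525). Nfkb1, the gene of p105 and p50, differed by 0.36 ± 0.17 and did not pass (adjusted p = 0.13). Rel was not above background on enough arrays to be tested.

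Among the inhibitors, 3 of 12 measured genes rose and none fell. Tnfaip3, which encodes the ubiquitin-editing enzyme A20, stood at -2.14, -2.48 and -2.46 on the N-fragment arrays, against -4.47, -4.39 and -4.42 on the void arrays. It rose 4.18-fold (2.07 ± 0.15, adjusted p = 3.5e-08), and its groups lay far apart. Nfkbia, the gene of IkB-alpha, stood at 2.85, 2.67 and 2.69 with the N-fragment, against 1.49, 1.61 and 1.67 with void. This was a 2.21-fold rise (1.14 ± 0.11, adjusted p = 8.9e-07). Cyld, a deubiquitinase that dampens the pathway, rose by 0.46 ± 0.10 (adjusted p = 0.0016), while its second probe differed by 0.11 and was not called. The other 9 members did not pass: Nfkbib, Nfkbie, Nfkbiz, Nfkbid, Bcl3, Tnip1, Tnip2, Otulin and N4bp1 had differences between -0.43 and 0.24 at the probe used. For Nfkbib, which encodes IkB-beta, the reading depends on the probe, since another of its probes rose by 1.29 (adjusted p = 3.24e-05). Bcl3, an atypical IkB protein with a kB match beside its start, was at -2.86, -3.11 and -2.98 with the N-fragment, against -2.76, -2.85 and -2.99 with void, with overlapping groups (-0.12 ± 0.16, adjusted p = 0.63). Tnip3 was not measured.

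The kinases and adaptors that feed the pathway moved little. Of 16 measured members 4 rose and 3 fell, and the median difference was -0.01, against -0.06 over all genes. Ripk1 (0.29 ± 0.09), Chuk (0.28 ± 0.05), Tab3 (0.25 ± 0.06) and Ikbkb (0.19 ± 0.07) rose. Chuk and Ikbkb encode the catalytic IKK subunits, Ripk1 a kinase recruited to the TNF receptor and Tab3 a partner of TAK1. Without slide 2 the calls of Ripk1, Tab3 and Ikbkb were lost, and without void replicate 1 or N-fragment replicate 1 those of Ripk1 and Ikbkb. Sharpin and Rbck1, both parts of the linear ubiquitin ligase, fell by 0.19 and by 0.54 (SE 0.05 and 0.16), and Tank, an adaptor of TBK1, fell by 0.27 (SE 0.08). The calls of Tank and Rbck1 were each lost without N-fragment replicate 2 or 3, and also without void replicate 1 for Tank and void replicate 3 for Rbck1. The void 1 value of Rbck1 was a flagged spot and was left out. Without slide 2 Chuk was the 1 member called higher, without void replicate 1 or N-fragment replicate 1 there were 2, and without N-fragment replicate 2 or 3 there was 1 called lower. Unscaled values gave 8 higher and none lower. Rnf31, Map3k7, Ikbkg, Tab2, Tradd, Tbk1, Map3k14, Tab1 and Ikbke did not pass, although another Map3k14 probe fell by 0.66 (adjusted p = 0.0253).

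At the probes used, receptors upstream of NF-kB fell or did not pass, with 1 exception. Tnfrsf12a, the receptor of the cytokine TWEAK, stood at 4.70, 4.51 and 4.43 on the N-fragment arrays, against 2.80, 2.98 and 3.05 on the void arrays. It rose 3.04-fold (1.60 ± 0.09, adjusted p = 3.2e-09). Tnfrsf1a, the main TNF receptor, fell by 0.35 (SE 0.08), Tlr4 by 0.52 (SE 0.08) and Tnfrsf10b, a TRAIL receptor, by 0.56 (SE 0.19), the last with an adjusted p of 0.037 that was lost when any 1 array was left out. Tlr2, below background on 1 of the N-fragment arrays, fell by 1.25 (SE 0.36). Without N-fragment replicate 3, which also removed the call of Tlr2, 2 members were called lower. These 4 falls were not called in unscaled values, where 2 members were called higher and none lower. Ltbr, Il1rap, Tlr3, Myd88, Irak1, Irak2, Irak3 and Irak4 did not pass, and Tnfrsf1b, Cd40, Fas, Il1r1 and Il1rl1 were not measured. For Irak2, which differed by 0.28 at the probe used, another probe rose by 1.34 (adjusted p = 0.00277). The mean of its probes was called higher (0.81, adjusted p = 0.00263).

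Of 22 listed chemokine and cytokine genes 8 were measured, and 4 of these were above background on all 6 arrays. These 4 were the genes called higher, and none was called lower. Ccl5, which attracts T cells and monocytes, stood at 3.93, 3.63 and 3.48 on the N-fragment arrays, against -0.09, 0.01 and 0.25 on the void arrays. The rise was 12.3-fold (3.62 ± 0.17, adjusted p = 2.4e-10). Cxcl10, an interferon- and NF-kB-driven chemokine, stood at 2.64, 2.72 and 2.59 with the N-fragment, against 0.82, 0.61 and 0.48 with void. This was 4.05-fold (2.02 ± 0.08, adjusted p = 2.8e-11), with no overlap. Cx3cl1, a membrane-bound chemokine, rose by 0.75 ± 0.16. Csf1, the macrophage growth factor, rose by 0.70 ± 0.25 (adjusted p = 0.041), a call lost when any 1 array was left out.

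Cxcl1, a neutrophil chemokine, was below background on all 6 arrays, so no fold can be given. It stood at -6.53, -6.09 and -7.24 with the N-fragment, against -8.07, -5.66 and -7.86 with void. Without void replicate 2 it was called higher (1.35, adjusted p = 0.00447), a difference between values below background. Ccl2, a monocyte chemokine, was also below background on all 6 arrays. Lif and Csf3 did not pass and were above background on 1 N-fragment and 2 void arrays each. Cxcl2, Cxcl3, Cxcl5, Cxcl9, Cxcl16, Ccl7, Ccl20, Il6, Tnf, Lta, Ltb, Il1a, Il1b and Csf2 were not measured. The adhesion and enzyme list had 5 measured members, Sod2, Nos2, Lcn2, Saa3 and C3, none of which passed. Their differences ran from -0.55 to 0.17, and Icam1, Vcam1, Sele, Ptgs2, Mmp9, Mmp3, Mmp13 and Plau were not measured.

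**Figure D2:**
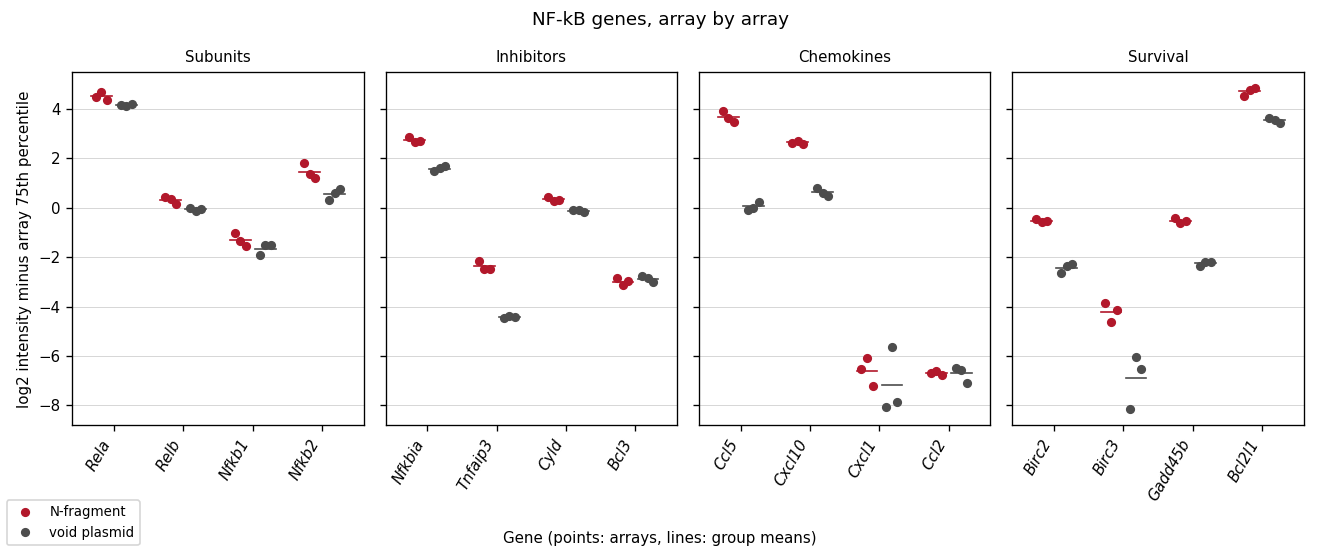
Level of 16 NF-kB pathway and survival genes on each array (points) with group means (lines), N-fragment left and void plasmid right. The y axis is log2 intensity minus the array's 75th percentile. Ccl5, Cxcl10, Tnfaip3 and Birc2 show no overlap between groups, whereas Nfkb1, Bcl3, Cxcl1 and Ccl2 overlap. Cxcl1 and Ccl2 are below background on every array shown.

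Direct comparisons with WT and with the C-fragment place these values. They use the same 3 N-fragment arrays as the comparison with void, so their differences are given side by side and not as separate evidence. Against WT 5121 genes were called (27.3%; 13.8% higher and 13.5% lower), and against the C-fragment 3774 (20.1%; 9.99% higher and 10.2% lower).

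Cxcl1 was at least 5.31-fold lower with the N-fragment than with WT (adjusted p = 4.2e-05), because all 3 WT arrays were above background at a mean level of -3.15. Bcl3 was lower than with WT by 1.47 ± 0.16, Relb by 0.75 ± 0.11 and Tnfaip3 by 0.54 ± 0.15. Ccl2 was at least 1.01-fold lower, and Tnip1, a partner of A20, lower by 0.41 ± 0.13. Ccl5 was 3.68 ± 0.17 higher than with WT (adjusted p = 2.3e-10), a size like that against void, since WT averaged 0.00 and void 0.06. Cxcl10 was 0.42 ± 0.08 and Nfkbia 0.34 ± 0.11 higher than with WT. Against the C-fragment, Tnfaip3 was 3.64 ± 0.15 higher, Cxcl10 3.33 ± 0.08, Nfkbia 1.47 ± 0.11, Bcl3 1.31 ± 0.16 and Relb 0.90 ± 0.11. For Tnfaip3 the C-fragment arrays averaged -6.00 and thus lay below the void arrays at -4.43, so this difference is larger than that against void.

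The 6 groups together show 2 kinds of order, given here as levels without a test. Tnfaip3 averaged -2.36 ± 0.19 with the N-fragment, -5.72 ± 0.26 with N+C, -6.00 ± 0.08 with the C-fragment, -1.03 ± 0.24 with D361E, -1.82 ± 0.07 with WT and -4.43 ± 0.04 with void (SD). Nfkbia had the same highest groups, with 3.13 ± 0.13 for D361E, 2.74 ± 0.10 for the N-fragment and 2.39 ± 0.12 for WT, against 1.59 ± 0.10 for void. Ccl5 was high in the N-fragment group at 3.68 ± 0.23 and in N+C at 3.12 ± 0.22, against 0.52 ± 0.36 in D361E and levels between 0.00 and 0.06 in the C-fragment, WT and void groups. Birc2, described next, averaged -0.53 ± 0.06 with the N-fragment and at most -1.98 ± 0.23 elsewhere.

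**Figure D3:**
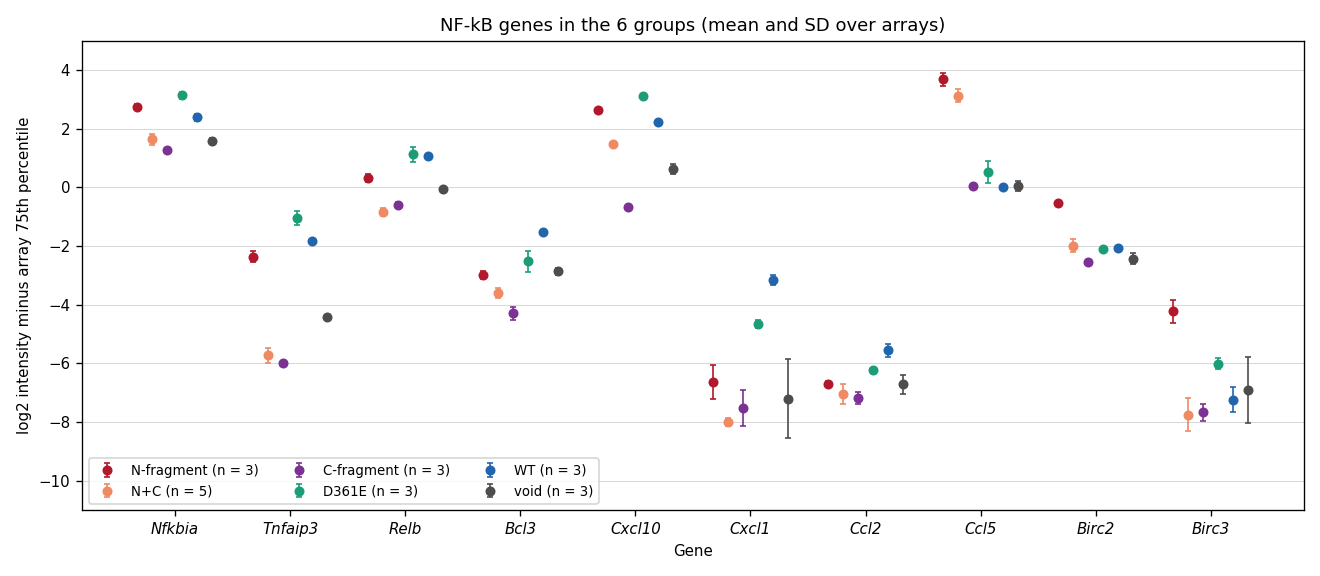
Mean level of 10 NF-kB genes in the 6 groups, with SD over arrays, as log2 intensity minus the array's 75th percentile. Tnfaip3, Nfkbia and Cxcl10 are high with the N-fragment, D361E and WT. Cxcl1 and Bcl3 are highest with WT, and Birc2 and Birc3 are highest with the N-fragment.

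Survival genes rose at a few points. Birc2 and Birc3 encode the inhibitor of apoptosis proteins cIAP1 and cIAP2 and are neighbours on the chromosome. Birc2 stood at -0.47, -0.59 and -0.53 on the N-fragment arrays, against -2.63, -2.36 and -2.28 on the void arrays, a 3.71-fold rise (1.89 ± 0.12, adjusted p = 6.6e-09). Birc3 stood at -3.86, -4.63 and -4.16 with the N-fragment, against -8.17, -6.03 and -6.51 with void, where no array was above background. It was at least 2.90-fold higher (adjusted p = 0.00028). Both were also higher than with WT, Birc2 by 1.54 ± 0.12 and Birc3 at least 3.16-fold. Birc5, the mitotic protein survivin, differed by 0.22 ± 0.07, a call lost without void replicate 2 or 3 or any 1 N-fragment array, and its other probes were not called. Xiap, Birc6, Naip5, Cflar and Traf1, Traf2, Traf3, Traf5 and Traf6 did not pass, with Traf1 below background on all 6 arrays. Without slide 2, Birc6 was called lower (-0.23, adjusted p = 0.0319).

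The BCL2 family moved both ways, with 4 of 12 measured members higher and 4 lower. Bcl2l1, the gene of the survival protein BCL-XL, stood at 4.54, 4.78 and 4.84 with the N-fragment, against 3.66, 3.57 and 3.43 with void (1.17 ± 0.23, adjusted p = 0.0011). Bcl2 rose by 0.78 ± 0.18 and the death agonist Bid by 0.64 ± 0.09, while Bak1 rose by 0.18 ± 0.06 with overlapping groups, a call lost without void replicate 1 or 3 or N-fragment replicate 2 or 3. Bbc3, the gene of the BH3-only protein PUMA, fell by 1.20 (SE 0.13), Bok by 0.75 (SE 0.13), Bmf by 0.72 (SE 0.13) and Bax by 0.26 (SE 0.07), the last lost without N-fragment replicate 1. The changes thus included anti-apoptotic members among those that rose and pro-apoptotic members on both sides. Mcl1 (-0.01), Bad (0.07) and Bcl2l2 (0.05) did not pass, although another Mcl1 probe rose by 0.38 (adjusted p = 0.0194). Unscaled values gave 7 higher and 2 lower.

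Casp1, the inflammatory caspase that processes interleukin-1 beta, stood at -2.08, -2.18 and -2.25 on the N-fragment arrays and was below background on every void array. This put it at least 11.1-fold above void (adjusted p = 1.9e-05) and 2.63 ± 0.50 above WT. Among the other caspases named here, Casp9 fell by 0.57 (SE 0.10), Casp8 by 0.51 (SE 0.16) and Casp6 by 0.39 (SE 0.07), while Casp2 (0.03) and the inflammatory Casp4 (-1.09) did not pass. None of these 3 falls was called in unscaled values, and that of Casp8 was lost without void replicate 3 or N-fragment replicate 2 or 3. Htra2 and Diablo, mitochondrial antagonists of the inhibitor of apoptosis proteins, rose by 0.36 ± 0.11 and 0.22 ± 0.04, and the call of Htra2 was lost without void replicate 1 or N-fragment replicate 1. Of the GADD45 stress sensors, Gadd45g stood at 2.06, 1.93 and 1.94 with the N-fragment, against -0.34, -0.14 and -0.05 with void (2.15 ± 0.12, adjusted p = 1.4e-09). Gadd45b, a known NF-kB target, rose by 1.71 ± 0.11 (adjusted p = 9e-09), and Gadd45a differed by 0.11 and did not pass.

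Targets of the tumour suppressor p53 fell in number. In the list for growth arrest and feedback 9 of 16 measured genes fell and 2 rose, against 17.9% and 13.2% of all genes. In the list for cell death and metabolism 8 of 11 fell and 1 rose. The list medians were -0.28 and -0.56, against -0.06 for all genes. Unscaled values gave 6 lower and 6 higher in the first list and 5 lower and 2 higher in the second, so the direction of the smaller differences depends on the scaling.

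The largest of these falls held under every scaling. Trp53inp1, a nuclear protein that assists p53, stood at -0.99, -1.01 and -0.92 on the N-fragment arrays, against 1.98, 1.89 and 1.91 on the void arrays. It fell by 2.90 on the log2 scale (SE 0.08, adjusted p = 5.7e-13). Btg2, an antiproliferative gene, stood at -4.24, -4.74 and -4.80 with the N-fragment, against -2.30, -2.15 and -2.22 with void, and fell by 2.37 (SE 0.14). Perp, a membrane protein of p53-dependent death, was below background on all N-fragment arrays and at least 5.44-fold lower (adjusted p = 5.7e-07). The groups of all 3 genes were far apart.

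Cdkn1a, which encodes the cell cycle inhibitor p21, stood at 3.34, 2.99 and 2.82 with the N-fragment, against 3.73, 4.12 and 4.26 with void, and fell by 0.99 (SE 0.17, adjusted p = 0.00036). A second Cdkn1a probe differed by -3.28 (adjusted p = 7.9e-11), so the size depends on the probe. Zmat3 fell by 1.35 (SE 0.19), Ccng1 by 1.23 (SE 0.10), Sesn1 by 1.20 (SE 0.13) and Sesn2 by 1.04 (SE 0.08). Ccng2, Ppm1d and Mdm2 fell by 0.49, 0.30 and 0.13. The call of Ccng2 was lost without slide 2, void replicate 3 or N-fragment replicate 2, and that of Mdm2 without slide 2 or any 1 array other than void replicate 3. In the death list Phlda3, Pidd1, Aen and, as above, Bbc3, Tnfrsf10b and Bax fell, the first 3 by 0.77, 0.60 and 0.49. Trp53 itself was higher by 0.61 ± 0.21 (adjusted p = 0.038), a call lost without any 1 array other than void replicate 3. Plk3, a stress kinase, rose by 0.72 ± 0.09, and Ei24 by 1.20 ± 0.10. Mdm4, Cop1, Sfn, Rchy1, Plk2, Tigar and Apaf1 did not pass, and Rprm, Fas, Pmaip1, Dram1, Gdf15, Trp53i11 and Eda2r were not measured. Another Mdm4 probe rose by 0.76 (adjusted p = 0.000749). Of the other Cop1 probes 1 rose by 0.19 (adjusted p = 0.0374) and 1 differed by -0.02 and was not called. Against WT the order was different for some: Mdm2 was 0.42 ± 0.05 and Cdkn1a 0.50 ± 0.17 higher with the N-fragment than with WT.

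**Figure D4:**
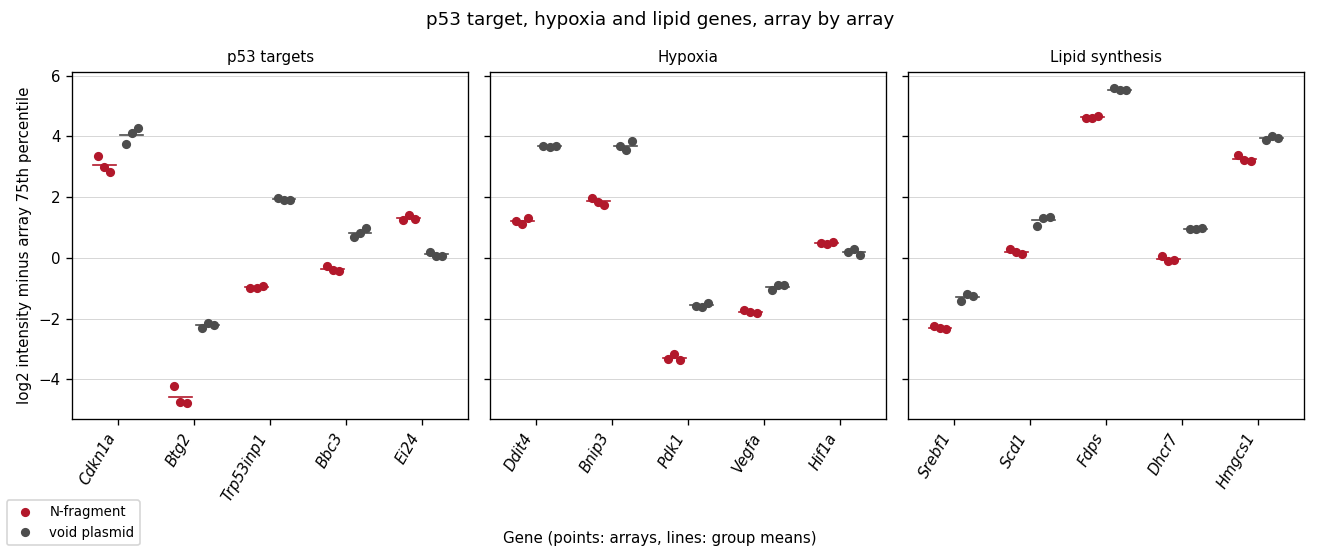
Level of 15 p53 target, hypoxia and lipid synthesis genes on each array (points) with group means (lines), N-fragment left and void plasmid right, as log2 intensity minus the array's 75th percentile. The N-fragment arrays lie below the void arrays for 13 of the genes. Ei24 and Hif1a lie above.

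Hypoxia-induced genes fell as well, 9 of 16 measured, and 1 rose. Ddit4, an inhibitor of mTOR, stood at 1.23, 1.12 and 1.30 on the N-fragment arrays, against 3.68, 3.66 and 3.69 on the void arrays. It fell by 2.46 (SE 0.09, adjusted p = 2.1e-11). Adm, a vasodilator peptide, fell by 1.89 (SE 0.58) with a call lost without slide 2, void replicate 3 or N-fragment replicate 2, Bnip3, a mitophagy receptor, by 1.83 (SE 0.14) and Pdk1, which blocks pyruvate entry into mitochondria, by 1.73 (SE 0.10). Hif1a, the regulator of the list, rose by 0.31 ± 0.09, a call lost without slide 2, void replicate 3 or N-fragment replicate 3. Ndrg1 (-0.28), Car9 (0.18) and P4ha2 (-0.44) did not pass. The list median was -0.75.

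Of 20 measured glycolytic genes 7 fell and 3 rose, against 17.9% and 13.2% of all genes. Falls included Aldoc by 2.25 (SE 0.22), Pfkfb4 by 1.19 (SE 0.15), Pfkm by 1.19 (SE 0.10) and Pfkp by 0.65 (SE 0.14). Pfkfb3 (0.71 ± 0.05), Hk1 (0.60 ± 0.21) and Slc2a3 (0.50 ± 0.18) rose. Pfkfb3 makes the activator of phosphofructokinase, and it was the 1 member called higher without slide 2, void replicate 1 or 2, or N-fragment replicate 1 or 2. Slc2a1 (0.05), Hk2 (-0.20) and Aldoa (-0.21) did not pass, and unscaled values gave 8 higher and 3 lower.

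Lipid synthesis fell in both of its branches. In the cholesterol list 14 of 25 genes fell and 1 rose, with a median of -0.46. In the fatty acid list 8 of 14 fell and none rose, with a median of -0.65. Dhcr7, the last step to cholesterol, stood at 0.06, -0.10 and -0.07 with the N-fragment, against 0.93, 0.96 and 0.97 with void (-0.99 ± 0.20, adjusted p = 0.0013). Insig1 fell by 0.94 (SE 0.22), Fdps by 0.92 (SE 0.12) and Stard4 by 0.78 (SE 0.08), and Hsd17b7 rose by 0.62 ± 0.12. Srebf2 (0.02) and Acat2 (-0.36) did not pass.

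Srebf1, which encodes the lipogenic factor SREBP-1, stood at -2.25, -2.33 and -2.33 with the N-fragment, against -1.41, -1.18 and -1.27 with void (-1.02 ± 0.10, adjusted p = 1e-06). Scd1, the stearoyl-CoA desaturase, fell by 1.04 (SE 0.11) and Acss2 by 0.81 (SE 0.13). Thrsp, a lipogenic regulator, was at least 2.94-fold lower. Fasn (-0.40), Elovl1 (0.03) and Elovl5 (-0.07) did not pass. In the cholesterol list the count of falls was 9 without slide 2, without void replicate 2 or 3, or without N-fragment replicate 3, and 5 in unscaled values. In the fatty acid list it was 9 without slide 2 and 5 in unscaled values. Against WT 17 cholesterol and 9 fatty acid genes were lower with the N-fragment, and against the C-fragment 14 and 10.

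Housekeeping machinery shifted in small steps. Of 26 proteasome subunits 9 rose and none fell, led by Psma3 (0.39 ± 0.09), Psmc1 (0.38 ± 0.09), Psmc6 (0.37 ± 0.07) and Psma6 (0.35 ± 0.11, lost without void or N-fragment replicate 1 or 2), and unscaled values gave 23 higher. Psma1 (0.15), Psma2 (0.09) and Psma7 (0.10) did not pass. Of 32 subunits of oxidative phosphorylation 11 fell, by at most 0.47, and none rose. Cox4i1 fell by 0.47 (SE 0.08) and Ndufb10 by 0.42 (SE 0.08). In unscaled values none was lower and 7 were higher, so the direction of this list depends on the scaling. Of 27 ribosomal protein genes 1 fell and none rose, with no call without slide 2, void replicate 3 or N-fragment replicate 3, and 13 higher in unscaled values. Among lysosomal genes 9 of 24 fell, led by Gusb (by 0.78, SE 0.09), Glb1 (by 0.69, SE 0.13) and Atp6v1a (by 0.60, SE 0.07), while Ctsl, the gene of cathepsin L, rose by 0.55 ± 0.14. Unscaled values turned that list to 8 higher and 3 lower.

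Stress programmes did not move as one. Of 24 targets of the antioxidant factor NRF2, 9 rose and 3 fell. Nqo1, a quinone reductase, was below background on all void arrays and stood at -2.24, -2.42 and -2.46 with the N-fragment, at least 10.4-fold higher (adjusted p = 2e-10). It was also 0.94 ± 0.26 above WT, which averaged -3.31. Srxn1 rose by 1.46 ± 0.10, Gclm by 1.20 ± 0.17 and G6pdx by 0.93 ± 0.12. Gstm1 fell by 1.19 (SE 0.12) and Nfe2l2, the gene of NRF2 itself, by 0.34 (SE 0.07). Hmox1 (0.40), Gsr (0.14) and Txn1 (0.12) did not pass.

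Among targets of the integrated stress response 4 of 21 rose and 6 fell, with Vldlr at least 1.80-fold lower and Ddit4, Sesn2 and Chac1 lower by 2.46, 1.04 and 0.72, the call of Chac1 being lost without N-fragment replicate 3. Slc7a5 (0.95 ± 0.08), Cebpb (0.85 ± 0.12), Slc3a2 (0.74 ± 0.17) and Ppp1r15a (0.66 ± 0.11) rose. The first and the third encode the 2 chains of one amino acid transporter. Atf4 (0.11), Atf3 (-0.17) and Ddit3 (0.19) did not pass. Against WT 13 of the 21 were lower with the N-fragment, among them Chac1 by 2.46 ± 0.22. Of 20 endoplasmic reticulum genes 4 fell, a share near the 17.9% of all genes. Sdf2l1 (by 0.97, SE 0.22) and Herpud1 (by 0.62, SE 0.12) fell most, and Sel1l rose by 0.33 ± 0.08. Hspa5 (0.00), Hsp90b1 (0.07) and Calr (-0.14) did not pass. Unscaled values turned these lists to 6 higher and 3 lower, and to 9 higher and 1 lower.

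Of the cytosolic heat shock genes, Hspb1, a small chaperone, stood at 1.29, 1.32 and 1.45 with the N-fragment, against -1.53, -1.43 and -1.56 with void. It rose by 2.86 ± 0.06 (adjusted p = 2.3e-14). The list as a whole had 2 of 13 genes higher and none lower, and Hspa8 (-0.12), Hspa4 (-0.01) and Hsph1 (-0.15) did not pass. Among 19 aminoacyl-tRNA synthetases 1 rose and 1 fell.

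Interferon-stimulated genes moved both ways. Among 28 of them 6 rose and 4 fell, against 13.2% and 17.9% of all genes. The list median was 0.06, against -0.06 over all genes, so the list as a whole showed no clear direction. Oasl1 stood at -1.28, -1.38 and -1.44 with the N-fragment, against -4.51, -4.49 and -4.73 with void (3.21 ± 0.25, adjusted p = 1.1e-07). Ifit1 rose by 1.82 ± 0.14, Isg15 by 1.18 ± 0.27 and Gbp2 by 1.09 ± 0.11. Ifitm3 fell by 1.18 (SE 0.23) and Cmpk2 by 0.74 (SE 0.18). Rsad2 fell by 1.48 (SE 0.49), a call lost when any 1 array was left out, and Irf1 by 0.45 (SE 0.10). Stat2 (-0.11) and Irf7 (0.53) did not pass.

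In the MHC class I list 5 of 13 genes fell and none rose, but fitting only the groups compared gave 6 lower and 3 higher, with H2-D1 and H2-K1 called higher. Nlrc5, the transactivator of these genes, was at least 1.75-fold lower and Psmb9 at least 1.49-fold lower. Tap1, a peptide transporter subunit, fell by 2.02 (SE 0.62) and Erap1, a peptide-trimming enzyme, by 0.93 (SE 0.30). Each of the 4 was above background on at most 1 N-fragment array. The calls of Psmb9 and Erap1 were lost without slide 2 and that of Tap1 without void replicate 2 or 3 or N-fragment replicate 3. The list had 3 falls without slide 2 or void replicate 1, 2 without void replicate 2 or 3 or N-fragment replicate 2, and 1 without N-fragment replicate 3. Unscaled values gave 2 lower and 2 higher, and probes above background on all 20 arrays gave 1 lower. B2m (0.21), H2-K1 (0.85) and H2-D1 (1.00) did not pass.

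Melanocyte genes were expressed in both groups, with shifts in the regulators. All 10 melanin and melanosome genes were above background on all 6 arrays. This goes with the melanocyte origin of B16 cells but cannot identify the line. Tyr, the gene of tyrosinase, fell by 0.70 (SE 0.07) and Gpnmb by 0.34 (SE 0.07), whereas Tyrp1 (-0.03), Dct (-0.21) and Pmel (-0.21) did not pass. The summed linear level of the list, in units of the 75th percentile, was 1174 to 1378 on the N-fragment arrays and 1413 to 1507 on the void arrays.

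Of 10 lineage regulators 5 rose and none fell at the probes used, and the mean of each gene's probes gave 4 higher and 1 lower. Lef1, a nuclear partner of beta-catenin, stood at -1.21, -1.51 and -1.56 with the N-fragment, against -4.02, -3.87 and -3.75 with void (2.45 ± 0.29, adjusted p = 9.6e-06), and was 4.26 ± 0.29 above WT. Kit, the stem cell factor receptor, rose by 1.79 ± 0.33, Tfap2a by 1.06 ± 0.07 at the probe used and Mc1r by 0.45 ± 0.08. Mitf, the master regulator of the lineage, rose by 0.44 ± 0.07. The second Tfap2a probe differed by -0.35 and was not called, and the mean of its probes (0.36) did not pass either. Sox10 (0.18), Pax3 (-0.08) and Ednrb (-0.63) did not pass. Another Pax3 probe fell by 0.34 (adjusted p = 0.00131), and the mean of its probes was called lower (-0.21, adjusted p = 0.0127). Of 16 genes for melanosome biogenesis and transport 4 rose, led by Rab32 (0.87 ± 0.07) and Mlph (0.61 ± 0.08), and 7 fell, led by Hps4 (by 0.77, SE 0.06) and Lyst (by 0.72, SE 0.11), while unscaled values gave 8 higher and 1 lower.

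Of 6 measured genes of the invasive melanoma state 3 rose and 3 fell. Ngfr, the neural crest receptor CD271, stood at -0.51, -0.95 and -1.11 on the N-fragment arrays, against -5.98, -6.06 and -5.23 on the void arrays, of which 1 was above background. It rose by 4.90 ± 0.25 (adjusted p = 6.6e-10). Axl, a receptor tyrosine kinase, stood at 0.75, 0.36 and 0.47 with the N-fragment, against -3.44, -2.93 and -3.16 with void (3.70 ± 0.32, adjusted p = 2.5e-07). Its relatives moved the other way: Mertk was at least 2.27-fold lower and Tyro3 fell by 0.61 (SE 0.07). Tead4, a partner of YAP, rose by 1.14 ± 0.18, and Sox9 fell by 0.36 (SE 0.11), a call lost without void replicate 1 or N-fragment replicate 1 or 2. Egfr, Zeb1, Twist1, Twist2, Wnt5a, Pdgfrb, Nrg1 and Fosl1 were not measured.

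Cell division genes rose broadly but modestly. Of 25 mitosis and spindle genes 19 rose and none fell, with a median of 0.47. Cenpe rose by 0.77 ± 0.11, Top2a by 0.73 ± 0.12, Cenpf by 0.65 ± 0.10 and Aurka by 0.60 ± 0.08. Ccnb1, the mitotic cyclin B1, stood at 4.79, 4.75 and 4.84 with the N-fragment, against 4.27, 4.19 and 4.25 with void (0.56 ± 0.05, adjusted p = 3.3e-07). Ccnb2 (0.14), Cdk1 (0.55) and Cdc20 (0.35) did not pass. Leaving out single arrays left 17 or 18 of the 25 called higher, and 18 were also higher than with WT.

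DNA replication genes followed in part, with 9 of 26 higher and 2 lower. Rrm2, the ribonucleotide reductase subunit, rose by 0.77 ± 0.09, E2f1 by 0.74 ± 0.12, Mcm3 by 0.65 ± 0.06 and Mcm5 by 0.56 ± 0.13, while Tyms fell by 0.38 (SE 0.08). Mcm2 (0.22), Mcm4 (-0.01) and Mcm6 (0.17) did not pass, and unscaled values gave 19 higher and none lower. In the G1 list Ccnd1, the gene of cyclin D1, rose by 0.42 ± 0.09 and Cdk4 by 0.18 ± 0.06, and Rbl2 and Ccnd3 fell by 0.46 and 0.32 (SE 0.14 and 0.05). The call of Cdk4 was lost without void or N-fragment replicate 1 or 2, and that of Rbl2 without slide 2, void replicate 3 or N-fragment replicate 2 or 3.

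Signalling read-outs rose in several pathways. Among early response genes 8 of 17 rose and 2 fell. Egr1, a zinc finger factor induced by ERK, was below background on all void arrays and stood at -2.74, -2.87 and -3.11 with the N-fragment, at least 7.19-fold higher (adjusted p = 2.4e-05). Maff, a small Maf factor, stood at -0.64, -0.75 and -0.63 with the N-fragment, against -3.68, -3.64 and -3.85 with void (3.05 ± 0.11, adjusted p = 1.4e-11). Nr4a1 rose by 1.05 ± 0.11 and Myc by 1.04 ± 0.21. Jund fell by 0.42 (SE 0.08) and Ier3, itself an NF-kB target, by 0.26 (SE 0.09), the last a call lost without slide 2 or any 1 array other than N-fragment replicate 3. Fos (0.44), Fosb (0.31) and Jun (-0.36) did not pass.

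Of 12 genes that report or restrain ERK signalling 7 rose and 1 fell. Etv4, an ETS factor, stood at -0.22, -0.51 and -0.57 with the N-fragment, against -4.38, -3.65 and -3.95 with void (3.56 ± 0.23, adjusted p = 7.9e-09). Etv5 rose by 1.55 ± 0.28, Spry2 by 0.81 ± 0.08 and Dusp4 by 0.54 ± 0.07, and Phlda1 fell by 0.77 (SE 0.09). Dusp1 (0.44), Dusp2 (0.13) and Spry1 (0.38) did not pass. Against the C-fragment the difference of Etv5 was -0.11 ± 0.28 and that of Dusp6 0.01 ± 0.06, and neither passed.

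The ID genes, which encode dominant-negative helix-loop-helix proteins downstream of BMP receptors, rose together with SMAD feedback genes: 6 of 10 measured members rose and none fell, with a median of 1.47. Id1 stood at 2.50, 2.70 and 2.97 on the N-fragment arrays, against -1.08, -0.69 and -1.09 on the void arrays (3.68 ± 0.57, adjusted p = 0.00012). Id3 stood at 4.64, 4.29 and 4.19 with the N-fragment, against 1.34, 1.91 and 2.01 with void (2.62 ± 0.45, adjusted p = 0.00031). Smad6, an inhibitory SMAD, rose by 2.68 ± 0.69 and Smad9 by 1.58 ± 0.50. The call of Smad9 was lost without slide 2, void replicate 2 or 3, or N-fragment replicate 2 or 3. Skil and Id2 rose by 1.40 ± 0.35 and 1.33 ± 0.29. Smad7 (1.53), Ski (0.12) and Bambi (0.50) did not pass, although Smad7 was called without slide 2 (adjusted p = 0.0426). In the list of ABL1, BCR and targets of STAT5, which lies downstream of Bcr-Abl, 3 of 10 genes fell, Socs2 by 0.61 (SE 0.08), Socs3 by 0.43 (SE 0.05) and Bcr, which is no STAT5 target, by 0.31 (SE 0.11), a call lost without any 1 array other than N-fragment replicate 1. Cish (0.18), Socs1 (0.04) and Pim1 (0.91) did not pass, and unscaled values gave 4 higher and 1 lower.

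**Figure D5:**
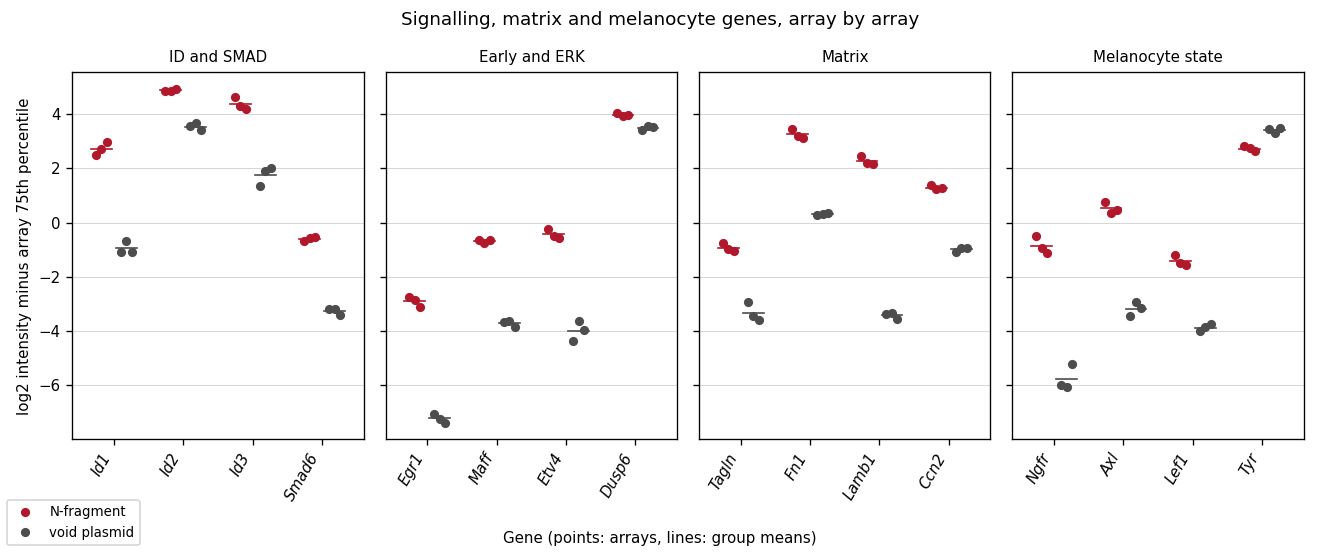
Level of 16 signalling, matrix and melanocyte genes on each array (points) with group means (lines), N-fragment left and void plasmid right, as log2 intensity minus the array's 75th percentile. The groups do not overlap for any of the 16 genes, and the N-fragment arrays lie higher for all but Tyr.

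Matrix and mesenchymal genes rose in number. Of 16 measured genes of the mesenchymal and TGF-beta list 10 rose and 1 fell. Fn1, the gene of fibronectin, stood at 3.45, 3.19 and 3.12 with the N-fragment, against 0.28, 0.30 and 0.35 with void (2.95 ± 0.43, adjusted p = 7.2e-05). Tagln, an actin-binding protein of contractile cells, rose by 2.40 ± 0.24. The YAP targets Ccn2 and Ccn1 rose by 2.28 ± 0.18 and 2.00 ± 0.12. Tgfb2 fell by 0.98 (SE 0.09), and Tgfbi (-0.37), Tgfb1 (-0.07) and Tgfb3 (0.18) did not pass.

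Among 15 collagen and laminin genes 5 rose and 2 fell. Lamb1, the laminin beta 1 chain, stood at 2.47, 2.19 and 2.16 with the N-fragment, against -3.38, -3.32 and -3.57 with void (5.70 ± 0.49, adjusted p = 2.9e-07). Col1a1 rose by 3.55 ± 0.78, Lama4 by 0.93 ± 0.09 and Col5a1 by 0.67 ± 0.11. Col4a1 and Plod2 fell by 0.93 and 0.41 (SE 0.13 and 0.10). Of 20 integrin and focal adhesion genes 9 rose and 1 fell, with Lims2, an adaptor of integrin-linked kinase, at 5.26, 5.09 and 5.04 with the N-fragment, against -1.78, -1.20 and -1.42 with void (6.60 ± 0.25, adjusted p = 2.3e-11). Vcl (0.89 ± 0.14), Itga6 (0.68 ± 0.13) and Pxn (0.67 ± 0.20) rose, and Itgb5 fell by 0.72 (SE 0.14). The call of Pxn was lost without void replicate 1 or N-fragment replicate 1, and fitting only the groups compared gave 4 members higher and 3 lower.

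The tubulins rose in 8 of 15 measured isotypes and fell in none. Tubb2b stood at 0.70, 0.72 and 0.68 with the N-fragment, against -5.07, -5.19 and -5.85 with void, of which 2 arrays were above background (6.07 ± 0.21, adjusted p = 1.2e-11). Its second probe differed by 1.30 and was not called (adjusted p = 0.172), so the size of this rise rests on 1 probe. Tubb2a rose by 1.59 ± 0.29, Tubb6 by 0.63 ± 0.09 and Tubb4a by 0.60 ± 0.12. Among 6 galectins Lgals3 stood at -2.36, -2.25 and -2.08 with the N-fragment, against 4.27, 4.12 and 4.18 with void, and fell by 6.42 (SE 1.00, adjusted p = 0.00013). Lgals3bp and Lgals8 fell by 1.75 and 0.39 (SE 0.12 and 0.07), and Lgals1 rose by 0.46 ± 0.14, a call lost without void replicate 1 or N-fragment replicate 1.

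Several of the genes above stand among the 15 largest rises with non-overlapping groups: Lims2, Tubb2b, Lamb1, Nqo1, Ngfr and Egr1. Also among them were Megf10 (5.84 ± 0.48), an engulfment receptor, Epha2 (4.52 ± 0.37), an ephrin receptor, Entpd2 (4.22 ± 0.40), an ecto-ATPase, and Tmem179 (4.09 ± 0.13). Of the void arrays only 1 was above background for Epha2. Afp, the fetal plasma protein alpha-fetoprotein, was at least 20.3-fold higher, Syn2, a synaptic vesicle protein, at least 9.21-fold, Rnf113a2 at least 5.90-fold and Cfap52, a ciliary protein, at least 4.86-fold.

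The 15 largest falls were led by Dkk3, a secreted protein of the Dickkopf family. It was below background on all N-fragment arrays, against 2.11, 1.69 and 1.70 on the void arrays, and thus at least 168-fold lower (adjusted p = 9.3e-11). Foxr2, a forkhead factor, fell by 6.44 (SE 0.54), Apobec1, an RNA editing enzyme, by 4.83 (SE 0.42), Cort, a neuropeptide, by 4.41 (SE 0.54) and Tcea3, an elongation factor, by 4.37 (SE 0.24). Apobec1 and Tcea3 were each above background on only 1 N-fragment array. Tor4a was at least 32.0-fold lower, Ldhd at least 28.0-fold, Kcnj13 at least 24.6-fold and Sytl4 at least 12.5-fold. Asb2, Ddit4l, Pde8b, Fstl1 and Ppp2r2b were at least 9.57-, 8.55-, 7.92-, 7.64- and 6.64-fold lower. Lgals3 completed the list.

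The same 30 genes were read in the other groups as levels, without a test. In N+C the mean lay nearer the N-fragment than the void level for 15 of the 30, in D361E for 8, in WT for 6 and in the C-fragment for 5. The 5 N+C arrays did not lie together on the third principal component (11.6% of the variance). Replicates 1 to 3 lay at 48.3, 35.2 and 39.0 there, and replicates 4 and 5 at -3.61 and 6.70. An N+C mean can thus fall between unlike arrays. Dkk3 averaged -6.74 with the N-fragment, and between 1.08 and 1.95 in each of the other 5 groups, N+C included. Foxr2 likewise had means nearer the void level in every other group. Ngfr averaged -0.86 with the N-fragment and -5.72 or less elsewhere. Kcnj13 averaged -5.56 with the N-fragment and -5.21 with N+C, and at least -0.83 in the other groups. Nqo1 and Rnf113a2, by contrast, were low with void and nearer the N-fragment level in all 4 other groups.

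In the comparison with WT the largest rises included Megf10 (6.45 ± 0.48), Ngfr (at least 32.4-fold), Fkbp10 (at least 35.3-fold), a collagen chaperone, Lims2 (5.88 ± 0.25) and Tagln2 (5.19 ± 1.06). Megf10 and Tagln2 were each above background on 2 WT arrays. The largest falls were Dkk3 (at least 177-fold), Lgals3 (6.76 lower, SE 1.00), Tor4a (at least 49.3-fold), Capn6 (at least 20.6-fold), Foxr2 (6.23 lower, SE 0.54) and Sytl4 (at least 13.4-fold). Against the C-fragment the rises included Cyba, a subunit of the phagocyte oxidase (at least 257-fold higher, SE of the log2 difference 2.30). Ngfr, Megf10, Zfp536 (at least 13.3-fold) and Rgs16 (7.03 ± 0.55) were others, Rgs16 with 1 C-fragment array above background. On the other side were Lgals3 (8.37 lower, SE 1.00), Dkk3, Foxr2, Tor4a, Ldhd and Hspb8 (at least 9.72-fold lower). Not all of these genes differed from void. Tagln2 and Cyba differed from void by 0.34 and 0.65 and were not called. Fitting only the groups compared did call Cyba (adjusted p = 0.0118). Capn6 was called against void only in unscaled values, where it was 0.54 higher. Ngfr and Megf10 were thus among the largest rises, and Dkk3, Lgals3, Tor4a and Foxr2 among the largest falls, in each of the 3 comparisons, which share the N-fragment arrays.

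Markers of other cell types were read beside these changes, and their part in the results was not tested. Of 19 haematopoietic and B-lymphoid markers 13 were not measured, Ptprc among them, 2 rose (Kit and Lck) and 1 fell (Cd74, a call lost without void replicate 2 or N-fragment replicate 1 or 3). Their summed linear level was 2.80 to 3.22 on the N-fragment arrays and 1.19 to 1.50 on the void arrays. Kit, which is part of this sum, also stands in the list of melanocyte regulators above. Of 12 macrophage markers 5 were measured and 2 fell, with sums of 2.19 to 2.68 on the N-fragment arrays and 2.79 to 5.32 on the void arrays. Of 11 fibroblast markers 7 were measured, with Col1a1 and Pdgfra higher and Fap and Fbln1 lower (Fap not without slide 2, void replicate 2 or 3, or N-fragment replicate 1), and Dcn, Lum and Col3a1 not measured. Their sums were 5.56 to 7.89 on the N-fragment arrays and 7.59 to 10.5 on the void arrays. No epithelial marker passed, and Epcam, Cdh1 and Krt8 were not measured. Of 8 neuronal and glial markers 3 fell, and 5 fell without void replicate 3, with sums of 27.7 to 31.4 on the N-fragment arrays and 49.9 to 78.5 on the void arrays. S100b, also a melanoma marker, fell by 1.56 (SE 0.09).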

How the data were processed

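Total RNA from 20 samples in 6 groups was read on 1-colour arrays with Agilent Feature Extraction 10.7.3.1, per the submitters' processing notes. The deposited scanner files hold processed intensity values, background-subtracted per the file headers. The deposited series table was equal to them on all features, so the deposited values were not scaled between arrays. Here log2 of each deposited intensity was taken, less the 75th percentile that the array's non-control probes gave. Outlier spots (98 to 285 per array) were left out. Probes received symbols through their RefSeq accession (28663 of 39429), and those well above background on at least 3 of 20 arrays were kept (23432). The brightest probe stood for a gene, which gave 18738 genes, 4915 of them without a symbol.

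All arrays and 6 groups were fitted with limma 3.58.1 in R 4.3.3 (residual df 14). The printed standard errors and calls thus rest on the spread within all 6 groups. A gene's SE can differ from the spread of the compared arrays. For Lgals3 the SD was 0.14 with the N-fragment and 0.07 with void, whereas the SE of the difference was 0.998. On simulated data for this comparison 200 of 18671 genes were changed, with independent noise and no slide effect. Of genes changed by 0.5, 1 and 2 on the log2 scale 40.3, 73.1 and 78.8% were recovered, and 4.48% of calls were false. These rates need not hold for the real arrays, where 31.1% of genes were called. The number of arrays limits the precision. For the background correction alternative the median signal stood in for the mean signal. Named genes were Rela, the largest changes with non-overlapping groups (leaving out 61 higher and 143 lower Gm, Rik and receptor symbols), all members of the NF-kB, IAP and p53 lists and the leading members of other lists. The 48 lists (815 members, 695 measured) and the comparison were chosen with earlier results of these data known. Some members of the lists and of the largest changes are not reported here.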

Additional observations from a re-analysis of the deposited data

How the results depend on the processing

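The count of genes called between the N-fragment and void stayed within 1.5 times of 5829 under every alternative run. Leaving out 1 array gave 4767 to 5531 calls, against WT 4057 to 4536 and against the C-fragment 2764 to 3231. With slide as a fixed block 2980 genes were higher and 3717 lower, and fitting only the groups compared gave 1966 and 2745. The split into higher and lower calls depended on the scaling: without scaling 84.9% of calls against void were higher, against 42.4% in the scaled values, and 3593 of the 5829 calls were retained in the same direction. Unscaled differences turned positive for Bax (0.08), Bcr (0.02), Ccnd3 (0.01), Ier3 (0.08), Mdm2 (0.20), Ppm1d (0.03), Sharpin (0.15) and Tank (0.06), and for genes that had not passed, Hspa4 (0.32), Mcl1 (0.32), Mcm4 (0.33), Pax3 (0.26) and Tab2 (0.33). These follow the shift of all genes by that setting. Leaving out slide 2 was chosen after seeing the data. No paired analysis was possible because the sample titles carry running numbers that no groups share. Probes below background limit what can be said of dim genes, which have only bounds.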
